A study of Mus musculus with 2 samples.

Results

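The expression of 35 genes that mark leukocytes was examined in RNA of mouse lung epithelial cells. The genes were listed by name as markers of macrophages and monocytes, of B cells, T cells and cytotoxic lymphocytes, of mast cells, or of leukocytes in general. Of the 35 genes, 34 had at least 1 probe on the array, with 44 probes in all, out of 20660 named genes and 55681 non-control probes. The accessions of Cd68, a lysosomal glycoprotein of macrophages, matched no probe, so Cd68 has no value here. The study compared epithelial cells labelled Mob1DKO with wild-type (WT) epithelial cells, both from C57BL/6 mice aged 10 weeks, with 1 Agilent 1-colour array per group, and values in Mob1DKO or in WT below are those of that array. Mob1DKO is not spelled out in the labels and was taken, from general knowledge of such mice, to mean deletion of Mob1a and Mob1b, adaptors that switch on the LATS kinases in Hippo signalling. The labels give neither the cell type in which the genes were deleted nor how the epithelial cells were separated or how many animals were pooled.

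Leukocytes are the blood-derived cells of the immune system, and their common surface marker is the phosphatase CD45, encoded by Ptprc. The resident leukocyte of the airspaces is the alveolar macrophage, which takes up surfactant and inhaled particles, while monocytes, B cells, T cells and natural killer cells sit in the vessels and the interstitium. Epithelial preparations from digested lung can therefore hold some leukocytes, and most of the genes below are used to detect them. A few of these genes are also known from other lung cells, such as Fabp4 from capillary endothelium and Cd14 from epithelium. In RNA of a mixed preparation, fewer cells of a type and less RNA per cell cannot be told apart.

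Signals are processed intensities, which are background-subtracted by the scanner software. Levels are log2 signals relative to the 75th percentile of the same array. A difference is the Mob1DKO level minus the WT level. The 75th percentile was 291 in Mob1DKO and 155 in WT, so an unscaled signal that is 1.88-fold higher in Mob1DKO gives no difference after scaling. A gene counted as above background where most spots of its probe carried the scanner's flag for a signal well above background. That flag was carried by 58.6% of probes in Mob1DKO and 53.1% in WT, and no spot was saturated. Signals of different probes have no common scale and are not set against each other. With 1 array per group there was no replicate and no test, and precision is limited by this number of arrays. Probes printed at 10 spots gave the technical SD of a single-spot difference, which was 0.64 at mean levels up to −3, 0.33 from −3 to −1.5, 0.15 from −1.5 to 0, 0.087 from 0 to 3 and 0.057 above 3. This SD leaves out the spread between animals and preparations. For bright genes the scanner's own error of a difference was larger, at 0.20 for Cd14, Lst1 and Cd4. The targeted gene Mob1b had a signal of 36.9 in Mob1DKO and 78.5 in WT and was 4.0-fold lower after scaling, while Mob1a differed by 0.07. Where these probes lie relative to any deleted exons was not examined, so the Mob1a value checks nothing. The female-expressed RNA Xist was 4.90-fold lower in Mob1DKO, and the Y-linked genes Eif2s3y and Ddx3y were at least 29.6-fold and 22.7-fold higher. The labels give no sex, and the genotype and the sex-linked difference cannot be told apart in any result below.

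Both preparations gave signal of some leukocyte genes, but several defining ones were not above background. On the Mob1DKO array 21 of 34 measured leukocyte genes (61.8%) were above background, and in WT 17 of 34 (50%). Among all named genes the shares were 71.7% in Mob1DKO and 68.5% in WT. Of the 34 genes, 17 were above background on both arrays, 4 in Mob1DKO only, none in WT only, and 13 on neither. By contrast, all 40 measured genes of the epithelial lists, which cover alveolar type 1 and type 2, club, ciliated and general epithelial cells, were above background on both arrays. Their differences had a median of −0.07, and none passed 2-fold.

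**Figure D1:**
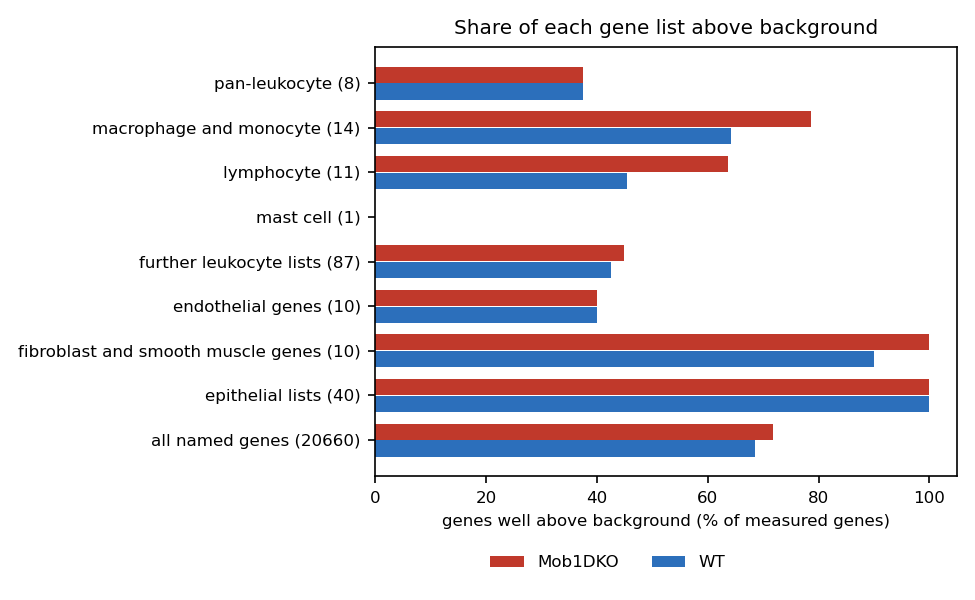
Share of measured genes well above background (x axis, in percent) in Mob1DKO (red, upper bar) and in WT (blue, lower bar) for each list of genes, with the number of measured genes in parentheses. Pan-leukocyte genes reached 37.5% on both arrays, macrophage and monocyte genes 78.6% in Mob1DKO and 64.3% in WT, and the epithelial lists 100% on both.

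The 13 genes above background on neither array had signals of 3.63 to 19.8 with a median of 5.69 in Mob1DKO, and of 2.87 to 12.3 with a median of 4.31 in WT. They were Ptprc, Tyrobp, Laptm5, Cd52, Cd53, Mrc1, Adgre1, C1qa, Ms4a1, Cd3g, Cd8a, Gzmb and Cpa3. The negative control spots, 308 on each array, had a median signal of 3.88 in Mob1DKO and 3.0 in WT. Their 95th percentile was 4.55 in Mob1DKO and 3.28 in WT. For 6 of the 13 genes, Tyrobp, Cd53, C1qa, Cd3g, Gzmb and Cpa3, both arrays held the low replacement value that the scanner software writes for a spot at background. The dimmest probe well above background had a signal of 17 in Mob1DKO and 14.1 in WT. A gene not above background has only an upper bound at this sensitivity, and no fold is given for it.

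**Figure D2:**
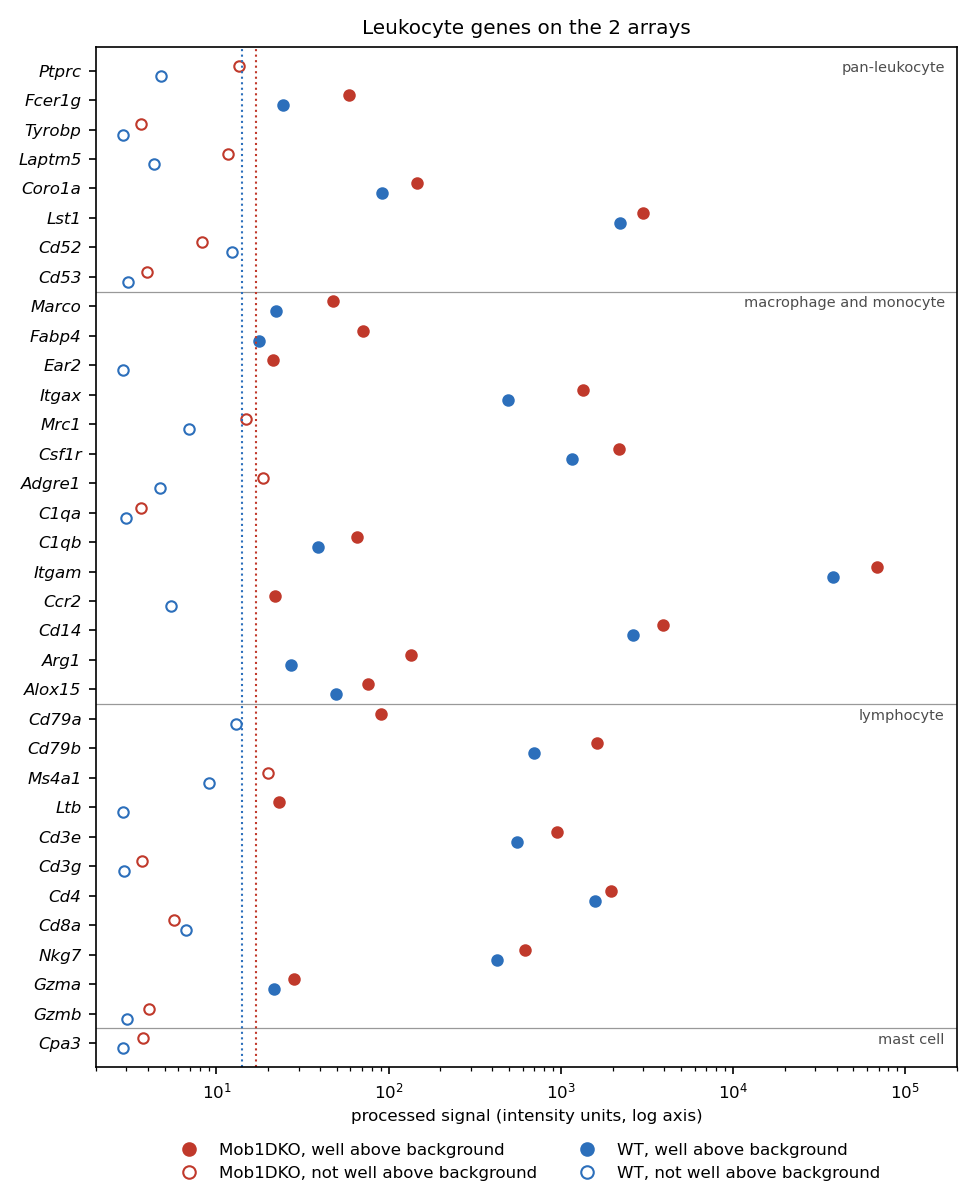
Processed signal (x axis, intensity units, log axis) of each of the 34 measured leukocyte genes in Mob1DKO (red, upper point of each pair) and in WT (blue, lower point), by cell class. Filled points are well above background and open points are not, and the dotted lines mark the dimmest signal well above background, at 17 in Mob1DKO and 14.1 in WT.

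Among genes shared by most leukocytes, 3 of 8 were above background, the same 3 on both arrays. Ptprc had a signal of 13.4 in Mob1DKO and 4.73 in WT and was not above background on either. Its unprocessed spot signal was 84.5 over a local background of 66.5 in Mob1DKO and 73.5 over 67.0 in WT. Also not above background were Tyrobp, the adaptor known as DAP12 that carries activating signals in myeloid and natural killer cells, the lysosomal membrane protein gene Laptm5, the glycoprotein gene Cd52 and the tetraspanin gene Cd53. Laptm5 had 2 probes, with signals of 11.7 and 3.67 in Mob1DKO and 4.31 and 5.26 in WT. Neither probe was above background, so the gap of 1.96 between their differences carries no direction.

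The 3 pan-leukocyte genes above background all stayed short of 2-fold. Fcer1g, the signalling chain shared by Fc receptors, had a signal of 58.5 in Mob1DKO and 24.5 in WT, a difference of 0.35 with a technical SD of 0.33. Coro1a, an actin-binding protein of haematopoietic cells, had 146 in Mob1DKO and 91.0 in WT, a difference of −0.23 with a technical SD of 0.15. Lst1, a small transmembrane protein of myeloid cells, had 2998 in Mob1DKO and 2212 in WT, a difference of −0.47 with a technical SD of 0.057. A second Lst1 probe, at 46.8 in Mob1DKO and 41.3 in WT, differed by −0.73. The median difference of these 3 genes was −0.23.

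Macrophage and monocyte genes were above background more often than the pan-leukocyte genes, at 11 of 14 in Mob1DKO and 9 of 14 in WT. All 4 alveolar macrophage genes were above background in Mob1DKO and 3 of them in WT. Fabp4, a fatty-acid-binding protein abundant in alveolar macrophages, had a signal of 71.3 in Mob1DKO and 17.7 in WT. Its levels were −2.03 in Mob1DKO and −3.13 in WT, which makes it 2.14-fold higher in Mob1DKO, a difference of 1.1 with a technical SD of 0.33. Itgax, the integrin CD11c, had 1339 in Mob1DKO and 493 in WT, a difference of 0.53 with a technical SD of 0.087. Marco, a scavenger receptor for particles and bacteria, had 47.6 in Mob1DKO and 22.3 in WT, and its difference of 0.19 lay within the technical SD of 0.33. Both Fabp4 and Marco were faint, while Itgax lay above the 75th percentile on both arrays.

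Ear2, a ribonuclease of eosinophils and alveolar macrophages with close copies in the mouse genome that a probe may not tell apart, was above background in Mob1DKO only, with a signal of 21.3 there and 2.88 in WT. The levels differed by 1.98. No fold is given, because its Mob1DKO level lay below the dimmest level that counts as well above background in WT, which was −3.45. The scanner's own error of that difference was 1.48.

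Of the 5 measured genes of macrophages in general, 2 were above background. Csf1r, the receptor for the growth factor that macrophages depend on, had 2176 in Mob1DKO and 1168 in WT, a difference of −0.01. Its other probes, at 432 and 66.7 in Mob1DKO and 305 and 37.3 in WT, differed by −0.41 and −0.07. C1qb, a chain of the complement component C1q made by tissue macrophages, had 65.6 in Mob1DKO and 38.7 in WT, a difference of −0.15 with a technical SD of 0.33. Not above background on either array were C1qa, which encodes a partner chain of the same complex, the mannose receptor gene Mrc1, and Adgre1, which encodes the macrophage antigen F4/80. Adgre1 had 2 probes, with signals of 18.6 and 4.27 in Mob1DKO and 4.68 and 3.15 in WT. The genes of this group that could be measured on both arrays thus differed by at most 0.15 at their brightest probes.

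The 3 genes of monocytes and other myeloid cells were above background in Mob1DKO, and 2 of them also in WT. Itgam, the integrin CD11b, had a signal of 68739 in Mob1DKO and 37861 in WT at its brightest probe, a difference of −0.05. Whether this probe reports Itgam RNA was not tested. Its other 2 probes had 272 and 44.9 in Mob1DKO and 112 and 10.8 in WT, with differences of 0.36 and 1.15, and the faintest was not above background in WT. The probes of Itgam therefore disagreed by up to 1.20, and with 75th percentile scaling the gene passed 2-fold only where the faintest probe was taken. Cd14, the co-receptor for bacterial lipopolysaccharide, had 3900 in Mob1DKO and 2614 in WT, a difference of −0.33 with a technical SD of 0.057. Ccr2, the chemokine receptor that recruits inflammatory monocytes, was above background in Mob1DKO only, at 21.8 there and 5.44 in WT. Its level differed by 1.09, with a scanner error of 0.86 and no fold that could be bounded above 1.

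Of the 2 genes that mark macrophage activation states, 1 passed 2-fold. Arg1, the arginase of alternatively activated macrophages and of the liver urea cycle, had a signal of 135 in Mob1DKO and 27.2 in WT. Its levels were −1.11 in Mob1DKO and −2.51 in WT, 2.63-fold higher in Mob1DKO, a difference of 1.40 with a technical SD of 0.33. Alox15, the lipoxygenase of resident macrophages and eosinophils, had 76.3 in Mob1DKO and 49.7 in WT, and its difference of −0.29 lay within the technical SD of 0.33.

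Lymphocyte genes were above background for 7 of 11 in Mob1DKO and 5 of 11 in WT, and 1 of them gave the only bound of 2-fold or more. Cd79a, a signalling chain of the B cell receptor, had a signal of 89.8 in Mob1DKO and 13.0 in WT, where it was not above background. It was at least 3.38-fold higher in Mob1DKO, with levels of −1.70 in Mob1DKO and −3.58 in WT and a technical SD of 0.33. Cd79b, the partner chain of Cd79a, was above background on both arrays, at 1615 in Mob1DKO and 699 in WT, and differed by 0.30 with a technical SD of 0.087. Ms4a1, the B cell antigen CD20, had 19.8 in Mob1DKO and 9.0 in WT and was above background on neither. Of the 2 receptor chains, Cd79a thus passed 2-fold and Cd79b did not, and the third B cell gene had no measured difference. Ltb, which encodes lymphotoxin beta of B and T cells, had 23.0 in Mob1DKO and 2.87 in WT, where it was not above background. Its levels differed by 2.10 with a scanner error of 1.47, and no fold could be bounded above 1.

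Promoter windows of 250 bases before to 50 bases after the gene start were found for 22 of the 35 genes in RefSeq on build GRCm38.p6. They are shown here for Cd79a, which had the largest bound among the leukocyte genes, and for Ltb, whose window holds the motif searched. The letters GAGGAAG, a core bound by the myeloid and B cell factor PU.1, were searched on both strands and are in capitals where they occur. The Cd79a window lies on the plus strand at chr7:24897247-24897546 and the Ltb window on the plus strand at chr17:35194257-35194556.
Cd79a: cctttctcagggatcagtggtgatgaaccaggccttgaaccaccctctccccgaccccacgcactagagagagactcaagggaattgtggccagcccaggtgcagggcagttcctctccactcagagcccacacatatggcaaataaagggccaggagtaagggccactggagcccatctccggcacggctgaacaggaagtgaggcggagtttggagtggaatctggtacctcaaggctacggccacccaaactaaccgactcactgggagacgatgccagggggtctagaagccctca
Ltb: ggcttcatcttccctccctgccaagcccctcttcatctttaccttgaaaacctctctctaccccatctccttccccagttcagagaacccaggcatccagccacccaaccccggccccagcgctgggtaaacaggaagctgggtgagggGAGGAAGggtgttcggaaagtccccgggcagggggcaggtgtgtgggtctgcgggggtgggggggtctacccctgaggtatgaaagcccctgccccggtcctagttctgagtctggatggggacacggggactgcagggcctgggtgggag
The motif begins 101 bases before the Ltb gene start. It occurred in the windows of 6 of the 22 genes (27.3%), namely Laptm5, Cd53, Marco, Mrc1, Itgam and Ltb, against 4152 of 27025 genes with a window (15.4%). Of the 6 genes, Marco and Itgam were above background on both arrays, Ltb in Mob1DKO, and Laptm5, Cd53 and Mrc1 on neither. A match is a run of letters and not evidence of binding.

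No T cell or cytotoxic gene passed 2-fold in either direction, and those above background on both arrays had differences below 0 at their brightest probes. Cd3e, a chain of the T cell receptor complex, had a signal of 955 in Mob1DKO and 557 in WT, a difference of −0.13 with a technical SD of 0.087. Cd3g, which encodes another chain of that complex, was at the scanner's replacement value on both arrays. Cd4, the co-receptor of helper T cells, had 1952 in Mob1DKO and 1588 in WT, a difference of −0.61 with a technical SD of 0.057. A second Cd4 probe, printed at 10 spots, averaged 37.4 ± 4.96 in Mob1DKO and 14.6 ± 5.09 in WT (SD over spots of 1 array), with 10 and 3 spots above background. That probe differed by 0.45, so the direction of Cd4 depended on the probe. Cd8a, the co-receptor of cytotoxic T cells, had 1 probe at 10 spots, none of them above background on either array, and its other probe was not above background either.

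Nkg7, a granule membrane protein of natural killer and cytotoxic T cells, had a signal of 617 in Mob1DKO and 427 in WT, a difference of −0.38 with a technical SD of 0.087. Its second probe, at 3.58 in Mob1DKO and 2.90 in WT, was above background on neither. Whether the bright probes of Lst1, Csf1r, Cd3e, Cd4 and Nkg7 report the named RNAs was not tested. The granzyme gene Gzma had 28.2 in Mob1DKO and 21.4 in WT, and its difference of −0.52 lay within the technical SD of 0.64. The granzyme gene Gzmb and the mast cell carboxypeptidase gene Cpa3, the 1 mast cell gene listed, were not above background on either array.

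A difference of 1 or more, called higher here, was found for 6 of the 21 leukocyte genes above background on at least 1 array (28.6%), and none had a difference of −1 or less, called lower here. Among all 15099 named genes above background on at least 1 array, 3.79% were higher and 2.91% were lower by this rule. The 6 were Fabp4, Arg1, Cd79a, Ear2, Ccr2 and Ltb, of which 4 were above background in Mob1DKO only and 3 (Ear2, Ccr2 and Ltb) have no fold that could be bounded above 1. Being above background on that array alone goes with a call: 41.7% of the 955 genes of that kind were called higher. A bound of 2-fold or more was reached by 12.3% of those 955 genes and by 1 of the 4 leukocyte genes, Cd79a. Among genes above background on both arrays, 2 of 17 leukocyte genes were higher, Fabp4 and Arg1, against 1.25% of all genes. Both were faint. Among the genes below the 75th percentile on both arrays 2 of 8 leukocyte genes were higher, against 1.75% of all genes. That band reaches up to a level of 0, whereas Fabp4 and Arg1 had mean levels below −1.5, where the technical SD is larger. The 1.75% is therefore not a rate at equal brightness. None of the 9 leukocyte genes above background on both arrays outside that band passed 2-fold.

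**Figure D3:**
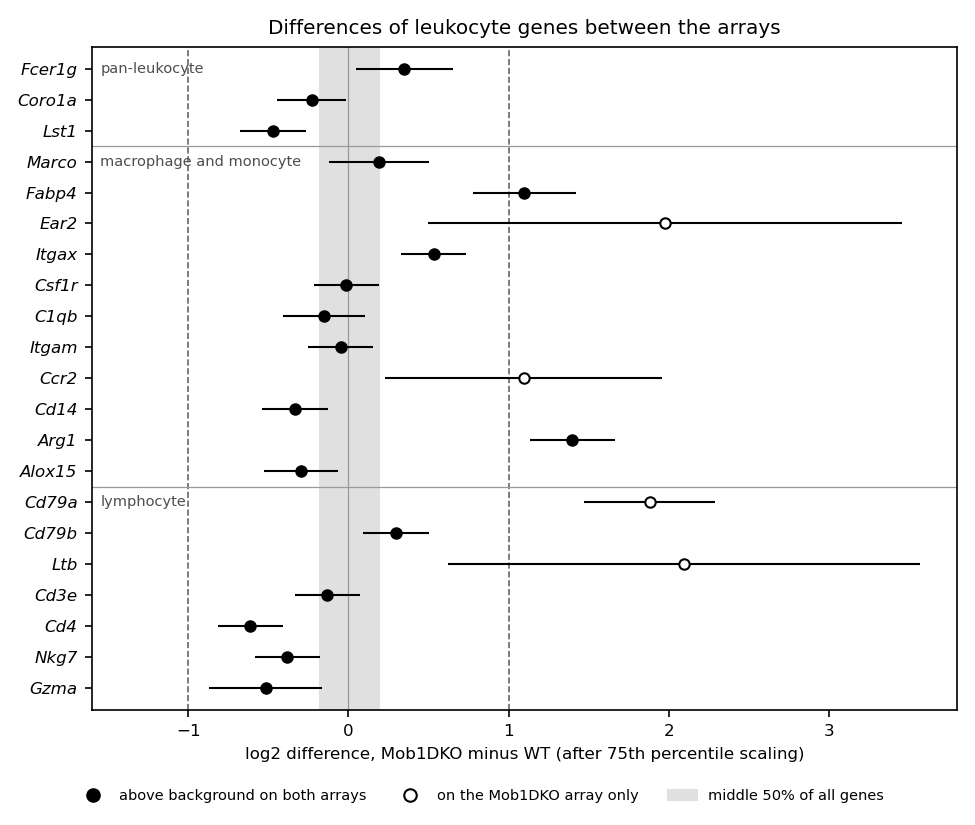
Log2 difference, Mob1DKO minus WT (x axis), of the 21 leukocyte genes above background on at least 1 array, by cell class. Filled points were above background on both arrays and open points in Mob1DKO only, bars are the scanner's error of the difference, the grey band spans the middle 50% of all genes (−0.18 to 0.19) and dashed lines mark 2-fold. Fabp4 and Arg1 are the filled points beyond 2-fold.

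The leukocyte genes had no common direction. The 17 genes above background on both arrays had a median difference of −0.13, within a range of −0.61 (Cd4) to 1.40 (Arg1), and 6 of them lay above 0. All genes above background on both arrays had a median of 0.01. The median was −0.01 for the 9 macrophage and monocyte genes, of which 4 lay above 0, and −0.38 for the 5 lymphocyte genes, of which 1 lay above 0. The 3 alveolar macrophage genes among them, Fabp4, Itgax and Marco, lay above 0 with a median of 0.53. This did not hold with the normexp background correction described next, under which Itgax differed by 0.57, Fabp4 by 0.20 and Marco by −0.28. The lymphocyte median of −0.38 is the value of Nkg7 at its brighter probe, and the other Nkg7 probe was not above background on either array.

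**Figure D4:**
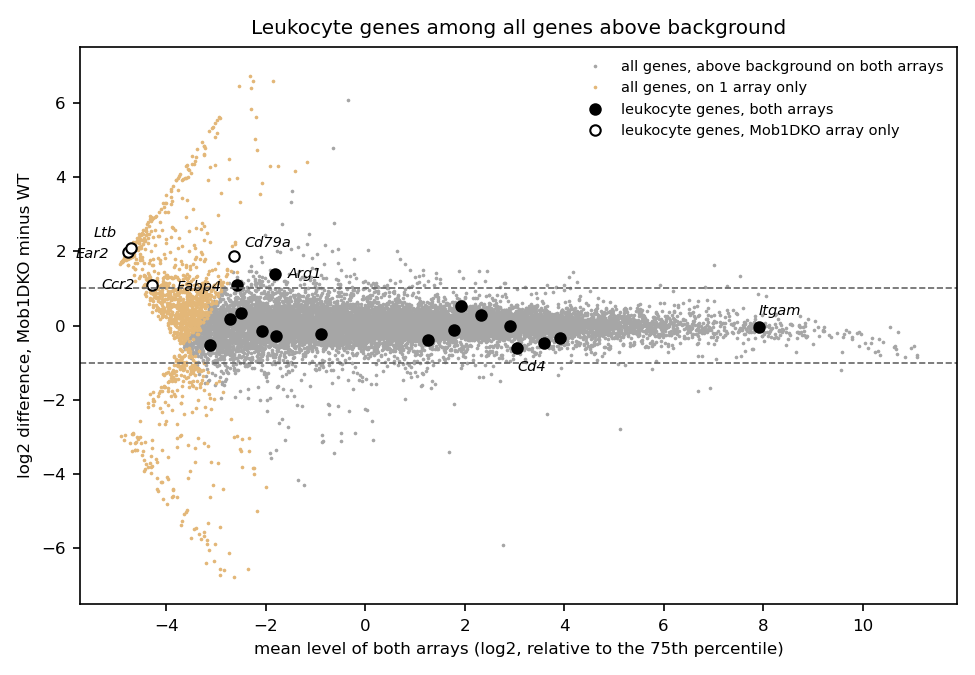
Log2 difference, Mob1DKO minus WT (y axis), against the mean level of both arrays (x axis, log2 relative to the 75th percentile), for all genes above background on both arrays (grey) or on 1 array (tan) and for the leukocyte genes (black, open where in Mob1DKO only). The 6 leukocyte genes beyond 2-fold have mean levels below −1.5, where the scatter of all genes is wide, and Itgam, the point farthest to the right, differs by −0.05.

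The calls depended on how background was handled at the faint end. With a model-based background correction (normexp, offset 50) of the spots' median signal, none of the 6 genes passed 2-fold. Arg1 then differed by 0.47, Fabp4 by 0.20 and Cd79a by 0.20, while Ltb differed by −0.24, Ear2 by −0.44 and Ccr2 by −0.49. Among genes short of 2-fold, Fcer1g (−0.26) and Marco (−0.28) also turned below 0, and Csf1r (0.27), Itgam (0.22) and Cd3e (0.0050) above it. The offset adds the same amount to both arrays before scaling, which by construction draws faint probes towards a lower level on the brighter Mob1DKO array. Across all genes this correction left 99 higher and 173 lower, against 572 and 439 with the processed signal. Under quantile, loess, median and pan-epithelial scaling, and in the deposited value table, the same 6 genes passed 2-fold. Median and pan-epithelial scaling shift all genes by the same small amount. The value table gave nearly the same differences as quantile scaling, for example 2.33 for Ear2 in both. These settings are therefore not separate checks of the calls.

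**Figure D5:**
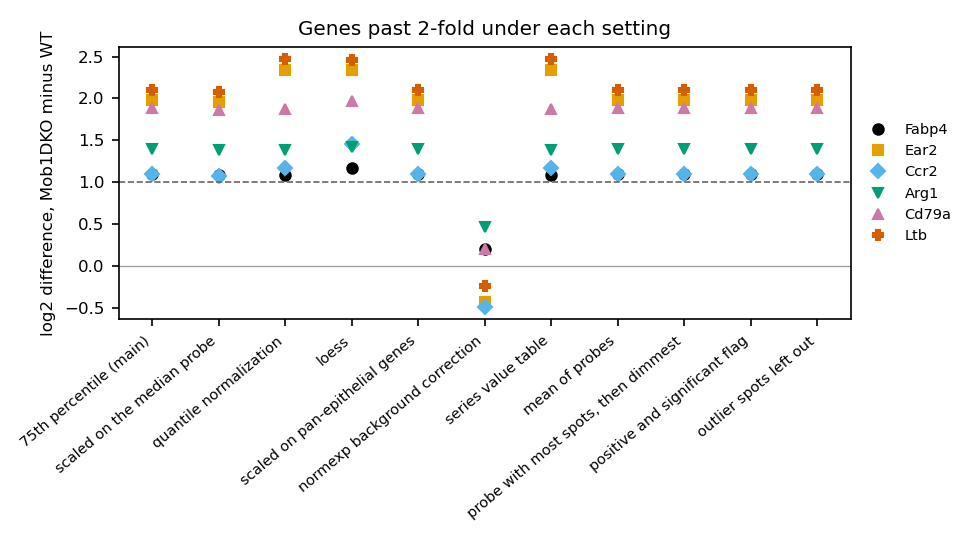
Log2 difference, Mob1DKO minus WT (y axis), of the 6 leukocyte genes past 2-fold under each processing setting (x axis), leaving out unscaled and spike-in scaled values, which shift all genes together, and the filter on both arrays. The dashed line marks 2-fold, which Fabp4, Ear2, Ccr2, Arg1, Cd79a and Ltb pass in each plotted setting except normexp, where they lie between −0.49 and 0.47.

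Further genes of the same cell types were examined to place these results. Of 99 further leukocyte genes, 87 had a probe, and 39 of them (44.8%) were above background in Mob1DKO and 37 (42.5%) in WT. The 33 above background on both arrays had a median difference of 0.04. Of the 43 above background on at least 1 array, 4 were higher and 4 were lower, against 3.79% and 2.91% of all genes. The 4 higher were S100a8, S100a9, Cd5 and Jchain, each above background in Mob1DKO only. The 4 lower were Chil3, above background on both arrays, and Cd8b1, Tbx21 and Igll1, each above background in WT only. Being above background in WT alone also goes with a call. Of all 439 genes called lower, 198 were above background on both arrays and the rest in WT only. Only 278 genes were above background in WT alone, so most genes of that kind were called lower. Of the 20 further macrophage genes, 11 were above background on at least 1 array, none was higher and 1 was lower, beside the 3.79% and 2.91% of all genes. The lower gene was Chil3, a chitinase-like protein of alveolar macrophages and airway epithelium, with a signal of 27.2 in Mob1DKO and 257 in WT and a difference of −4.15. Its direction was opposite to that of Fabp4 and Arg1. C1qc, which encodes the third chain of C1q, was printed at 10 spots and was above background on neither array. In Mob1DKO 1 of its spots read 829 and the other spots 3.53 to 7.58, and in WT its spots read 2.79 to 3.31. The 10 macrophage genes above background on both arrays had a median of 0.18, and the 4 dendritic cell genes one of 0.19. The brightest of those macrophage genes were Plet1, Car4 and Pparg. Another 9 of the 20, among them Spi1, Aif1, Cd163 and Cybb, were above background on neither array. The part of other cell types in the macrophage median was not tested.

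None of the further B cell genes passed 2-fold. Of 10 measured, 4 were above background on both arrays, and their median difference was −0.18. Among immunoglobulin genes, only Jchain and Igll1 of the 11 listed genes had a named probe. Jchain, the chain that joins polymeric antibodies in plasma cells, had 52.6 in Mob1DKO and 7.81 in WT, where it was not above background, and was at least 1.98-fold higher in Mob1DKO. Igll1, a surrogate light chain of developing B cells, had 3.99 in Mob1DKO, where it was not above background, and 51.6 in WT, and was at least 5.70-fold lower in Mob1DKO. Jchain and Igll1 thus differed in opposite directions, but each was above background on 1 array only. The further genes were not examined singly with normexp. Under that correction Cd79a, also above background on 1 array only, differed by 0.20.

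The further T cell and cytotoxic genes were likewise mixed. Cd8b1, the partner chain of Cd8a, had 9.99 in Mob1DKO, where it was not above background, and 43.4 in WT, at least 4.79-fold lower in Mob1DKO. Tbx21, the transcription factor T-bet of type 1 and natural killer cells, had 10.3 in Mob1DKO, where it was not above background, and 28.6 in WT, at least 3.16-fold lower in Mob1DKO. Cd5, a regulator of T cell receptor signalling, was above background in Mob1DKO only, at 18.9 there and 3.24 in WT, with no fold above 1. The 4 further T cell genes above background on both arrays had a median difference of 0.16, and the 3 further cytotoxic genes one of −0.19.

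Among neutrophil genes, the calprotectin chains S100a8 and S100a9 were above background in Mob1DKO only. S100a8 had 21.1 in Mob1DKO and 4.70 in WT, and S100a9 had 17.1 in Mob1DKO and 2.87 in WT. Neither gave a fold above 1 as a bound, and the 5 neutrophil genes above background on both arrays had a median of −0.18. Of the further mast cell and basophil genes, 2 of 9 were above background, on both arrays and with a median of 0.06. Of the 5 eosinophil genes 1 was above background, with a difference of 0.27.

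Markers of other cells that a lung digest can hold were set beside these genes. Of 10 endothelial genes, 4 were above background on both arrays, with differences of −0.60 to 0.53 and a median of −0.02. None of the 4 passed 2-fold, and the part of endothelial RNA in the Fabp4 value was not tested. Fibroblast and smooth muscle genes were above background for 10 of 10 in Mob1DKO and 9 of 10 in WT, with a median of −0.27. Of these 10, 1 was higher and 1 was lower. Lum, above background in Mob1DKO only, was at least 2.22-fold higher in Mob1DKO. Cspg4, above background on both arrays, was 2.57-fold lower in Mob1DKO. Of the 8 measured red cell genes, 5 were lower in Mob1DKO and none was higher, and the 5 were haemoglobin genes. Hba-a1, whose probe may not tell it from its near-identical copy Hba-a2, had 70.6 in Mob1DKO and 322 in WT, 8.57-fold lower in Mob1DKO. Red cell RNA thus moved with the genotype labels, and its part in the leukocyte values was not tested.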

How the data were processed

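RNA of Mob1DKO and WT lung epithelial cells was measured on 1 array each, grouped by title (Mob1DKO) and by source name (WT). Per the file headers, the deposited processed signal is an intensity from Agilent Feature Extraction 10.7.1.1, background-subtracted and not normalized between arrays. Version 9.5.1.1 is given in the submitters' processing notes. The deposited flags record whether a spot is well above background. The deposited value table is linear intensity with a median of 27.3 in each column, and the sources used here do not say how it was made. Across probes, its log2 values correlated with those of the same array at r = 0.9998 for Mob1DKO and 0.9995 for WT.

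Spots of a probe were averaged and log2 signals were taken minus the array's 75th percentile (Python 3.11.15, numpy 2.4.6, pandas 2.3.3). Probes were named by unversioned RefSeq accession in a table on assembly GRCm38.p6, which named 27235 of 28685 probes with such an accession. For several probes, the brightest above background on at least 1 array was used. A gene was called at a log2 difference of 1 or more in size where it was above background on the brighter array. Bounds set the brighter level against the dimmer one, or, where that is higher, against the lowest level well above background on the dimmer array (−4.10 on the Mob1DKO array, −3.45 on the WT array). The calling step was tested on simulated data in which both arrays carried the same flags and all levels had the same noise. Calls of genes above background on 1 array only, the bounds and the wider scatter of faint probes were therefore not tested. The members and lists were chosen with earlier results of these data known. Values per array are given for called genes, genes whose probes disagree by over 1 and the 2 brightest of each cell type. They are also given for Ptprc, Fcer1g, Marco and C1qc, added after their values were seen. Values of Ms4a1 are given too, although it meets none of these rules. The search for signalling motifs in proteins was not run. Alternatives were other scalings, normexp (limma 3.58.1 in R 4.3.3), the value table, other probe rules and other filters.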

Additional observations from a re-analysis of the deposited data

How the results depend on the processing

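The count of 6 leukocyte genes called higher was 10 without scaling and 21 with scaling on 8 spike-in transcripts, whose median signal ratio, WT over Mob1DKO, was 2.50. These settings moved the median of all genes to 0.92 and 2.24. Without scaling, the medians were 0.78 for all leukocyte genes above background on both arrays, 0.90 for macrophage and monocyte, 0.53 for lymphocyte and 0.68 for pan-leukocyte genes. With spike-in scaling they were 2.10, 2.22, 1.85 and 2.0. Each of these medians lay below that of all genes in the same setting. With normexp 0 genes were called higher, and the called genes Ear2 (−0.44), Ccr2 (−0.49) and Ltb (−0.24) changed sign, as did the uncalled Fcer1g, Marco, Csf1r, Itgam and Cd3e. The macrophage and monocyte median was then 0.20. Because the files hold no mean spot signal, normexp used the median spot signal. Requiring both arrays above background left 2 genes called higher. The laxer flag for a positive and significant signal put 26 genes above background in WT and called 7 higher, adding Adgre1, and 2 lower, Cd52 and Cd8a. It gave medians of 0.084 for all leukocyte genes and 0.059 for pan-leukocyte genes. Averaging all probes of a gene gave a lymphocyte median of −0.13. Taking the most-spotted or dimmest probe gave 7 genes called higher, adding Itgam. Of 273 single-gene values under 13 other settings, 216 moved by less than the gene's scanner error, 54 moved further, and 3 were called genes that changed sign, as above. The settings that change only a filter left these values unchanged, and median and pan-epithelial scaling shift all genes by the same small amount. The count of 216 is therefore not a measure of stability. Except where stated above, the cause of a change was not tested. Naming by a gene name column was not run, since the files hold none. No replicate could be left out, and no paired analysis was possible because each group has 1 array. The faint signals of most called genes, close to the dimmest value above background, limit what can be resolved.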

Other observations

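Csf3r, the receptor for the neutrophil growth factor G-CSF, had a signal of 80270 in Mob1DKO and 35331 in WT, a difference of 0.27. Siglech, a lectin of plasmacytoid dendritic cells, had 125292 in Mob1DKO and 73448 in WT, a difference of −0.14. Both genes were named as the brightest of their lists, and whether these probes report the named RNAs was not tested. Among alveolar genes, the 10 type 2 genes had a median difference of −0.21 and the 7 measured type 1 genes one of 0.28, while the 5 measured club cell genes had −0.59 and the 8 ciliated cell genes 0.01.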
